A study of Mus musculus with 4 samples.

Results

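The genes of the major histocompatibility complex (MHC) and of antigen processing were described in mouse thymocytes at the DN3 stage. They were chosen by name: every entry of the per-library gene table whose symbol begins with H2-, except the 2 H2-Ke genes, together with B2m, Tap1, Tap2, Tapbp, Psmb8, Psmb9, Psmb10, Nlrc5, Ciita and Cd74. The rule found 50 of 23285 genes, of which 30 are class I heavy chain genes, 11 are class II chain or chaperone genes and 9 are the class I light chain, loading, proteasome and regulator genes. Mean levels reached 1 FPKM (fragments scaled to transcript length and library size) over the 4 libraries for 25 of them, and these 25 were tested within 10224 genes that passed the same filter.

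DN3 thymocytes carry neither CD4 nor CD8 and are the precursors that rearrange their T cell receptor beta genes. Of the 4 libraries, 2 came from donor fetal liver labelled Gata3(g/g), a hypomorphic genotype, and 2 from wild type (WT) donor fetal liver. All were labelled C57BL/6. Irradiated recipients had received donor cells of either genotype, and their DN3 cells were collected by sorting after 16 weeks. The labels do not state whether libraries of 1 genotype are from different animals, and p-values concern the spread between these libraries, which may be technical. The sequence identifiers in the labels put both replicates 1 in a first sequencing run, run 1 here, and both replicates 2 in another, run 2. Most genotype differences are therefore also given within a run or by library.

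MHC class I molecules are pairs of a polymorphic heavy chain and B2m, the light chain beta-2 microglobulin, that display peptides cut by the proteasome, carried into the endoplasmic reticulum by the TAP transporter and fitted with the help of tapasin. Class II molecules are alpha and beta chain pairs that assemble on the invariant chain CD74 and receive peptides in endosomes, where H2-DM exchanges the peptide and H2-O restrains H2-DM. NLRC5 is the transactivator of class I genes and CIITA that of class II genes; class I is found on nearly all nucleated cells, whereas class II is typical of B cells, dendritic cells, macrophages and thymic epithelium.

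Rounded fragment totals lay between 14331705 and 26901913 per library. All 12 DN3 markers passed the filter, with summed levels of 4879 and 5133 FPKM in Gata3(g/g) libraries and of 4502 and 5225 FPKM in WT libraries. Within the list Il2ra, which encodes the CD25 antigen that defines the stage, was at 569 and 492 FPKM in Gata3(g/g) libraries, against 277 and 261 FPKM in WT libraries, and it alone of the 12 passed edgeR's quasi-likelihood test with the run as a block (adjusted p = 0.00262, with a difference of 0.98 ± 0.181 in log2, SE). Dntt did not pass, at 1047 and 982 FPKM in Gata3(g/g) libraries, against 789 and 747 FPKM in WT libraries. Gata3, which encodes the T lineage zinc-finger factor altered in the mutant, stood in libraries labelled Gata3(g/g) at 119.9 and 96.1 FPKM, against 62.4 and 58.5 FPKM in WT libraries. Its transcript was therefore higher in the libraries labelled as hypomorphic, a gene-level count cannot tell the parts of an altered allele from each other, and each direction given for Gata3(g/g) rests on the labels. The 6 erythroid markers were high in run 2. They summed to 2.19 and 587 FPKM in Gata3(g/g) replicates 1 and 2, and to 1.21 and 459.9 FPKM in WT replicates 1 and 2.

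Class I transcripts were abundant and class II transcripts scarce in every library. B2m was the most abundant of the 50 genes, at 1859 and 1923 FPKM in Gata3(g/g) libraries and 1467 and 1352 FPKM in WT libraries. Of the class I heavy chain genes, the classical H2-K1 and H2-D1 together made between 79.5% and 83.4% of the summed class I heavy chain level of a library. Psmb8 came next to H2-K1 in mean level and stood above H2-D1 in each library, and after H2-D1 came, in order of mean level, Psmb10, Tapbp, Psmb9, H2-Q7, Tap1 and Tap2, between 14.4 and 64.5 FPKM. The ranges over the 4 libraries overlapped between neighbours in that order, except that Psmb10 lay above Tapbp in every library. The class II chaperone gene H2-DMa reached 29.4 FPKM, while the antigen-binding class II chain genes H2-Aa, H2-Ab1, H2-Eb1 and H2-Eb2 summed to no more than 7.76 FPKM in any library.

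**Figure D1:**
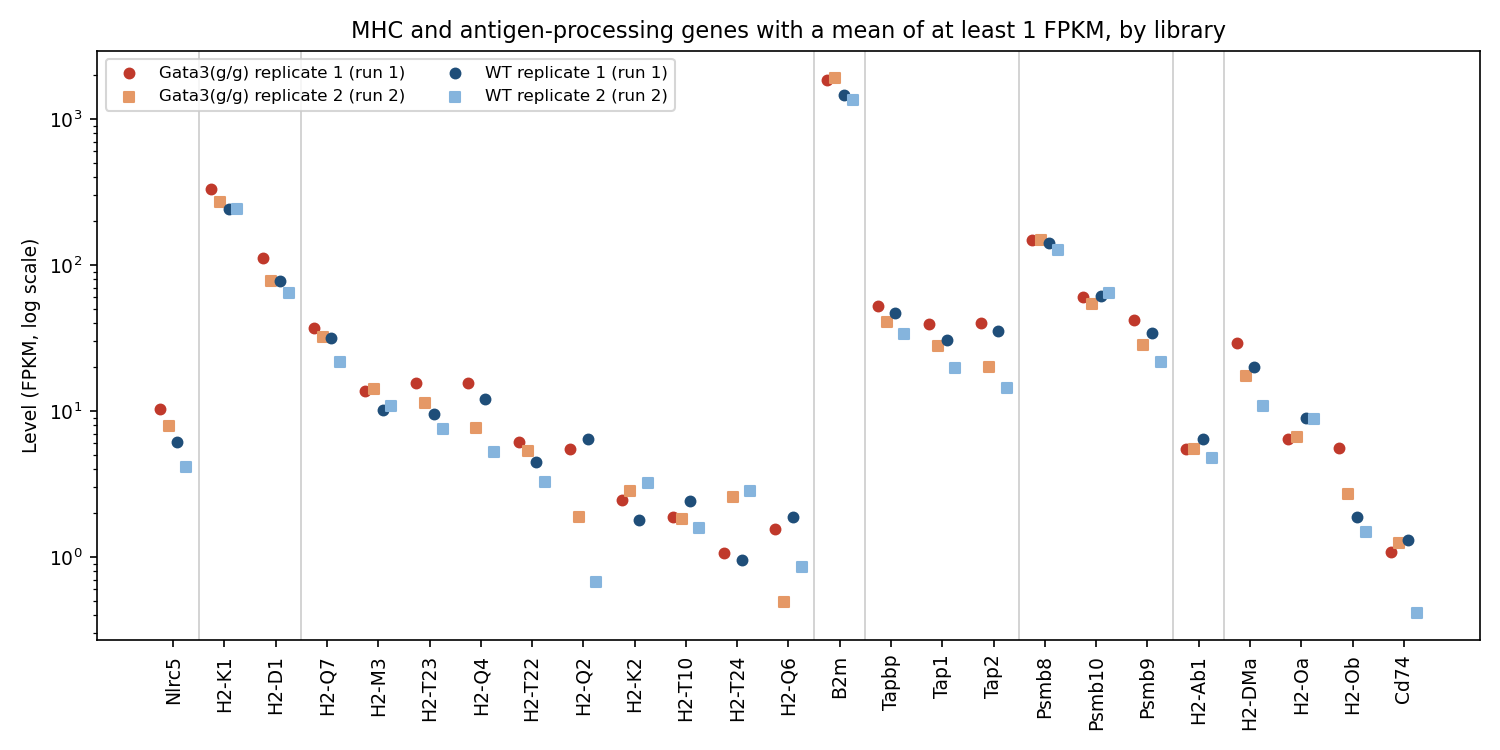
Levels of the 25 tested genes in FPKM on a log scale, by library, grouped by role from left to right (transactivator, classical class I, other class I, B2m, transport and loading, immunoproteasome, class II chain, class II chaperones). B2m lies between 1352 and 1923 FPKM, and Cd74, the last gene on the right, lies between 0.411 and 1.3 FPKM.

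Of the 25 genes, 4 were higher in the libraries labelled Gata3(g/g) and 0 lower by edgeR's quasi-likelihood test with the replicate number, that is the run, as a block (Benjamini-Hochberg adjusted p under 0.05 over all genes), called blocked edgeR from here on. They were Nlrc5, H2-T23, H2-Ob and H2-DMa. Over all 10224 genes, 3.90% were called higher and 2.99% lower by the same test. Without the block, which leaves the difference between the runs in the error, 0 of 25 genes and 0.00% of all genes were called; 2 of the 25 had an unadjusted p under 0.05, where 3.84% of all genes did, and DESeq2 without the block called 0 of the 25 and 0.861% of all genes. With the block, other settings called 4 genes higher with DESeq2's size factors (3.92% of all genes), 6 with total fragments only (4.54%), 4 with no filter (2.57%), 2 at a mean of at least 5 FPKM (3.05%) and 2 in DESeq2 (2.25%). Limma with the block called 0, where 0.176% of all genes passed with a pseudocount of 1 and 0.411% with 0.1. Beyond the calls, 20 of the 25 log2 fold changes in blocked edgeR were above 0, where 5247 of all 10224 genes tested were. The median over the 25 was 0.38, against 0.01 over all genes tested. The log2 CPM difference (CPM is the fragment count scaled to library size, here with a prior count of 2) was above 0 in both runs for 16 of the 25 genes and below 0 in both for 2, where 33.1% and 31.3% of all genes did so. Both Gata3(g/g) libraries lay above both WT libraries for 9 genes and below for 2, against 14.2% and 14.8% of all genes. These genes share loci, fragments and regulators, so the counts describe the list and are no test of it. In sorted bulk samples, more cells of a type and more RNA per cell cannot be told apart.

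Nlrc5 was among the genes that rose. Its level was 10.4 and 7.85 FPKM in Gata3(g/g) libraries, against 6.16 and 4.16 FPKM in WT libraries, from 772 to 3712 fragments. Every Gata3(g/g) library lay above every WT library, and within each genotype the run 1 library was the higher. The log2 fold change was 0.84 ± 0.131 (SE, adjusted p = 0.000586 by blocked edgeR), with 0.77 in run 1 and 0.91 in run 2. The fit with no block gave 0.83 (adjusted p = 1.0 by edgeR). In the authors' deposited table the Nlrc5 log2 fold change was 0.82 with a q-value of 0.00198; 4.10% of the entries that the table marks as tested had a q-value under 0.05. The authors' entry for Nlrc5 spans chr8:94472763-94527272 in mm10, and the antisense transcript 9330175E14Rik, which overlaps the longer Nlrc5 gene of GENCODE, had at most 19 fragments in a library. Ciita, the class II counterpart, was at 0.0811 and 0.158 FPKM in Gata3(g/g) libraries, against 0.0770 and 0.289 FPKM in WT libraries, from at most 39 fragments, and the groups overlapped.

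NLRC5 and CIITA act on the same kind of promoter module, in which an X box bound by the RFX complex and by CREB or ATF factors lies upstream of an inverted CCAAT (Y) box bound by NF-Y. Promoters of 5 genes are printed below because they belong to abundant class I genes (H2-K1, H2-D1, B2m) or to genes called higher (H2-T23, H2-Ob), and show which of these letters each holds. H2-DMa, also called higher, is not printed, and its RefSeq start lies 10153 bases from the edge of the authors' entry. The printed promoters have starts 0 bases from that edge for H2-K1, H2-D1 and H2-Ob, 5473 for H2-T23 and 27579 for B2m. For H2-T23 and B2m the authors' entry is wider than the gene in GENCODE, so these distances are not distances from the gene. The B2m entry spans chr2:122120108-122186189, whereas the GENCODE gene spans 122147686-122153083. They come from RefSeq on GRCm38.p6, run 5′ to 3′ on the gene's strand from 250 bases before to 50 bases after the annotated start, and the capitals mark matches to 6 motifs searched on both strands: the inverted CCAAT box ATTGG, the CRE core TGACG, the interferon response motif (GAAA and GAAA with NN between them), the kappaB motif (GGGGA and TCCCC with N between them), the GATA motif AGATAA and the class II X box core CTAGCAAC.
H2-K1 (chr17:34000284-34000583, minus strand): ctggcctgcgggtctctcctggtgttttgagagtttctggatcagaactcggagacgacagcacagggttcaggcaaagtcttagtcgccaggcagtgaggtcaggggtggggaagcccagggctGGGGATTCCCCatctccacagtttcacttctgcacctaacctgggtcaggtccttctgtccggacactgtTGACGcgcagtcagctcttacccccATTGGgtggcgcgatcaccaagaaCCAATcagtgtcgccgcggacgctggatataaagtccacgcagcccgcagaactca
H2-D1 (chr17:35262844-35263143, plus strand): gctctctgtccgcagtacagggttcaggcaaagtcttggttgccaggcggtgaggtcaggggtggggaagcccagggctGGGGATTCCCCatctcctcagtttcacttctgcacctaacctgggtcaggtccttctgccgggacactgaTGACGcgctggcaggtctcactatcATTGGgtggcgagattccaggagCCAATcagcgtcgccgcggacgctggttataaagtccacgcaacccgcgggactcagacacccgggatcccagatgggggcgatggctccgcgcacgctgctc
H2-T23 (chr17:36032652-36032951, minus strand): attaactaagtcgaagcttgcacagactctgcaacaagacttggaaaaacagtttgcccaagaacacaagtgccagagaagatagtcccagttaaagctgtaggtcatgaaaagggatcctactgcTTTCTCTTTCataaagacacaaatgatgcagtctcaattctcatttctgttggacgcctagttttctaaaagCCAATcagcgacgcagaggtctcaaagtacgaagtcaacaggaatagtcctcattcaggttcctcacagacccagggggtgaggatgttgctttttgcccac
B2m (chr2:122147437-122147736, plus strand): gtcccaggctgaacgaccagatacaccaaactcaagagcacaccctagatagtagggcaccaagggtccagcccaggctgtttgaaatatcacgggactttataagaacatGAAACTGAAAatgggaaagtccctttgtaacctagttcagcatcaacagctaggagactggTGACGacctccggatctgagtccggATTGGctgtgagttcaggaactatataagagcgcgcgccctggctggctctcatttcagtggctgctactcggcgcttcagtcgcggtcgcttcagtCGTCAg
H2-Ob (chr17:34238655-34238954, plus strand): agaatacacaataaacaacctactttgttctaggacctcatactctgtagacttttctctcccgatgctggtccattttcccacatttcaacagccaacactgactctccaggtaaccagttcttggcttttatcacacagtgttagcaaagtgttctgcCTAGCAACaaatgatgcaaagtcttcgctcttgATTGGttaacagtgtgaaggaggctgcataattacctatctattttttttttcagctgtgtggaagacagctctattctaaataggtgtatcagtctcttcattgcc

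RefSeq promoters were found for 36 of the 50 genes, among them 18 of the 25 tested, and for neither Nlrc5 nor Ciita. On the gene's own strand, the inverted CCAAT box ATTGG occurred in 8 of 9 promoters of tested class I heavy chain genes, against 22.1% of 32851 promoters searched. Counted in either orientation it occurred in 9 of 9, against 37.4%, since the H2-T23 promoter holds it as a direct CCAAT. The CRE core occurred in 6 of the 9, against 20.8% of all promoters, and its place relative to the CCAAT matches varied. It lay upstream of all of them in 3 promoters (H2-K1, H2-D1 and H2-Q7), downstream of all in 1 (H2-T22) and neither in 2 (H2-M3 and H2-Q4). The kappaB motif was found in 3 of the 9, H2-K1, H2-D1 and H2-Q6, against 0.0487% of all promoters, and the interferon response motif in 2, against 3.44%. The kappaB letters searched are 1 narrow form of that motif, held by 16 of 32851 promoters with these 3 included. Other forms were not searched, so the kappaB contrast is no test. The class II X box core occurred in 1 of the 18 promoters, that of H2-Ob, against 1.32% of all promoters, and the GATA motif in 3 of the 18, H2-DMa, H2-Oa and H2-Q2, against 11.2%. AGATAA is also only 1 form of the GATA motif, and other forms were not searched. The printed H2-T23 and B2m promoters hold AGATAG, which is not marked, so an unmarked promoter is not shown to lack GATA letters. Class I promoters are copies of a common ancestor, so they are not independent, the X box core was added to the search with the sequences in view, and a match is a description of letters, not a site.

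Of the class I heavy chain genes, 12 of 30 were tested; 1 rose, 0 fell and 11 did not pass, where 3.90% of all genes were called higher and 2.99% lower. Their median log2 fold change was 0.39. The gene that rose was H2-T23, which encodes Qa-1, the nonclassical molecule that presents class I leader peptides to CD94/NKG2 receptors. It stood at 15.6 and 11.4 FPKM in Gata3(g/g) libraries, against 9.60 and 7.55 FPKM in WT libraries. The groups did not overlap. Its log2 fold change was 0.65 ± 0.161 (SE, adjusted p = 0.02 by blocked edgeR), with 0.72 in run 1 and 0.58 in run 2, and the call was lost without the block (adjusted p = 1.0). The DESeq2 fit with the block did not call it, and its q-value in the authors' deposited table was 0.152. The authors' table gives H2-T23 and H2-T24 the same span on chromosome 17. An antisense transcript, A930015D03Rik, overlaps H2-T23 in GENCODE and had at most 50 fragments in a library against 237 to 950 for H2-T23.

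The classical heavy chain genes did not pass. H2-K1 measured 329.9 and 270.5 FPKM in Gata3(g/g) libraries, against 240.4 and 241 FPKM in WT libraries. These groups did not overlap, with Gata3(g/g) replicate 1 the highest, and the log2 fold change of 0.31 ± 0.163 (SE) had an adjusted p of 0.288 by blocked edgeR. H2-D1 measured 111 and 78.0 FPKM in Gata3(g/g) libraries, against 78.2 and 63.9 FPKM in WT libraries. Gata3(g/g) replicate 2 and WT replicate 1 were nearly level, and within runs the difference was 0.52 and 0.27 on the log2 scale. Its log2 fold change was 0.40 ± 0.126 (SE, adjusted p = 0.0712 by blocked edgeR), and it passed when libraries were scaled by total fragments only (adjusted p = 0.0482).

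Besides H2-T23, 4 nonclassical genes had both within-run differences above 0 without passing. H2-M3, which presents N-formylated peptides, was at 13.8 and 14.1 FPKM in Gata3(g/g) libraries, against 10.1 and 10.9 FPKM in WT libraries, and the groups did not overlap (log2 fold change 0.41 ± 0.15, SE, adjusted p = 0.120 by blocked edgeR). H2-T22, whose product is bound by some gamma-delta T cell receptors, was at 6.17 and 5.35 FPKM in Gata3(g/g) libraries, against 4.46 and 3.28 FPKM in WT libraries, again with no overlap (0.58 ± 0.200, SE, adjusted p = 0.0950 by blocked edgeR). H2-Q7, which encodes Qa-2, was at 37.2 and 32.0 FPKM in Gata3(g/g) libraries, against 31.5 and 21.5 FPKM in WT libraries (0.43 ± 0.139, SE, adjusted p = 0.0802 by blocked edgeR). The groups did not overlap, but Gata3(g/g) replicate 2 exceeded WT replicate 1 by little. H2-Q4 was at 15.5 and 7.61 FPKM in Gata3(g/g) libraries, against 12.0 and 5.24 FPKM in WT libraries, so that the libraries sorted by run rather than by genotype (0.45 ± 0.148, SE, adjusted p = 0.0798 by blocked edgeR).

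Fragments of near-identical class I genes were shared out by the authors' software. H2-Q7, H2-Q9, H2-T22 and H2-T9 were the only 4 of the 50 genes with a fractional fragment estimate, and the authors' deposited table places H2-Q7 with H2-Q9, and H2-T22 with H2-T9, at the same position on chromosome 17. Summed over H2-Q7 and H2-Q9, the level was 78.4 and 61.8 CPM in Gata3(g/g) libraries, against 61.5 and 40.8 CPM in WT libraries. Summed over H2-T22 and H2-T9 it was 20.6 and 18.7 CPM in Gata3(g/g) libraries, against 14.4 and 11.9 CPM in WT libraries. Both sums were higher in Gata3(g/g) within each run, as H2-Q7 and H2-T22 were alone.

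Markers of later T cell stages were measured beside these levels. Of 6 markers of double-positive and mature T cells, 4 were tested and 2 rose. Cd8b1, a CD8 chain, was at 7.61 and 7.22 FPKM in Gata3(g/g) libraries, against 3.63 and 1.11 FPKM in WT libraries (1.77 ± 0.302, SE, adjusted p = 0.00135 by blocked edgeR), and Cd8a rose too (1.28 ± 0.286, SE). Cd4 reached at most 0.492 FPKM. The part of these markers in the class I levels was not tested.

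The other 5 tested heavy chain genes had low levels and differences of either sign. H2-Q2 was at 5.52 and 1.87 FPKM in Gata3(g/g) libraries, against 6.38 and 0.669 FPKM in WT libraries. H2-Q6 was at 1.55 and 0.492 FPKM in Gata3(g/g) libraries, against 1.89 and 0.856 FPKM in WT libraries. Both were high in run 1 and low in run 2 in either genotype. H2-T24 ran the other way, at 1.07 and 2.57 FPKM in Gata3(g/g) libraries, against 0.952 and 2.83 FPKM in WT libraries. H2-T10, annotated as a polymorphic pseudogene, was at 1.87 and 1.81 FPKM in Gata3(g/g) libraries, against 2.40 and 1.57 FPKM in WT libraries. The pseudogene H2-K2 was at 2.46 and 2.81 FPKM in Gata3(g/g) libraries, against 1.79 and 3.20 FPKM in WT libraries. The genotypes overlapped for each of these 5 genes, and of them H2-Q6 alone differed in the same direction in both runs (−0.25 and −0.75 on the log2 scale).

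The light chain and loading genes did not pass, with log2 fold changes from 0.22 to 0.43. B2m, at the levels given above, showed no overlap between genotypes; its log2 fold change was 0.43 ± 0.174 (SE, adjusted p = 0.165 by blocked edgeR), with 0.37 in run 1 and 0.48 in run 2. Tap1, a subunit of the peptide transporter, was at 39.2 and 27.8 FPKM in Gata3(g/g) libraries, against 30.8 and 19.8 FPKM in WT libraries. It was higher in Gata3(g/g) within each run and overlapped across runs. Its adjusted p of 0.0502 by blocked edgeR lay just above the threshold (log2 fold change 0.42 ± 0.122, SE), and it passed when libraries were scaled by total fragments only (adjusted p = 0.0334). Tap2, the partner of Tap1, was at 40.0 and 20.0 FPKM in Gata3(g/g) libraries, against 35.4 and 14.4 FPKM in WT libraries (0.33 ± 0.129, SE, adjusted p = 0.15 by blocked edgeR). Tapbp, which encodes tapasin, was at 52.2 and 40.7 FPKM in Gata3(g/g) libraries, against 47.0 and 33.6 FPKM in WT libraries (0.22 ± 0.122, SE, adjusted p = 0.338 by blocked edgeR). All 3 were higher in run 1 than in run 2 in both genotypes.

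None of the 3 immunoproteasome subunit genes passed. Psmb8 was at 148 and 149 FPKM in Gata3(g/g) libraries, against 142 and 127 FPKM in WT libraries, with no overlap but a log2 fold change of 0.14 ± 0.124 (SE). Psmb9, which overlaps Tap1 on the other strand in GENCODE, was at 41.7 and 28.2 FPKM in Gata3(g/g) libraries, against 34.4 and 21.8 FPKM in WT libraries (0.32 ± 0.138, SE, adjusted p = 0.187 by blocked edgeR). Psmb10, which lies outside the MHC on chromosome 8, was at 60.4 and 53.9 FPKM in Gata3(g/g) libraries, against 61.2 and 64.5 FPKM in WT libraries. With H2-Oa it was 1 of the 2 genes whose Gata3(g/g) libraries both lay below the WT libraries in FPKM, though its log2 CPM difference was 0.01 in run 1 and −0.28 in run 2. The constitutive counterparts did not pass either. As log2 ratios of FPKM within a library, Psmb8 over Psmb5 was 1.41 and 2.05 in Gata3(g/g) libraries, against 1.08 and 2.89 in WT libraries. Psmb9 over Psmb6 was −0.74 and −1.59 in Gata3(g/g) libraries, against −1.19 and −2.43 in WT libraries, and Psmb10 over Psmb7 was −0.34 and −0.44 in Gata3(g/g) libraries, against −0.53 and 0.23 in WT libraries. Within runs, Psmb9 over Psmb6 was higher in Gata3(g/g) in both, while the other 2 ratios were higher in Gata3(g/g) in run 1 and lower in run 2.

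**Figure D2:**
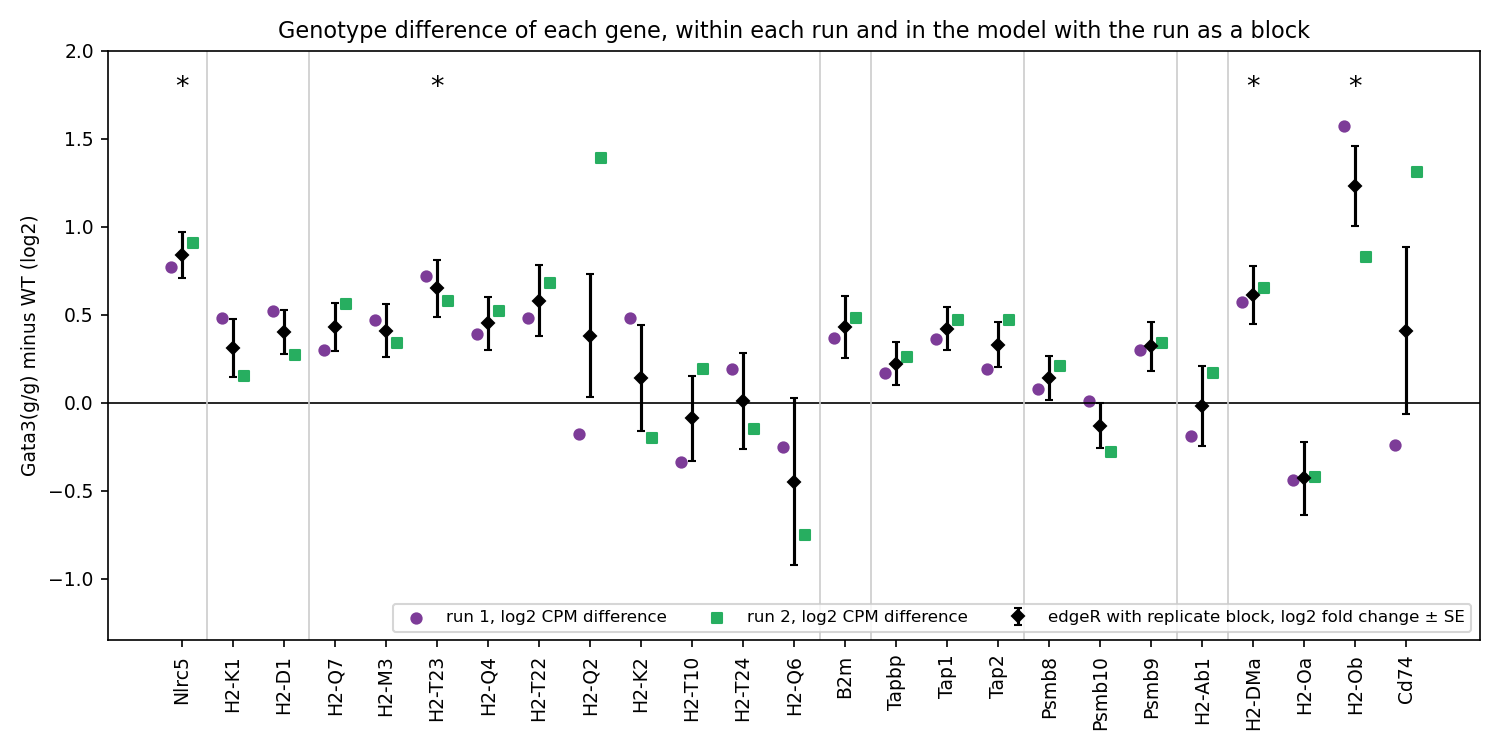
Difference between Gata3(g/g) and WT on the log2 scale for the 25 tested genes, in run 1 (circles), in run 2 (squares) and in the edgeR model with the block (diamonds with SE); asterisks mark an adjusted p under 0.05. Nlrc5, H2-T23, H2-DMa and H2-Ob carry the asterisks, and H2-Q2 and Cd74 have differences of opposite sign in the 2 runs.

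Of 5 tested class II genes, 2 rose, 0 fell and 3 did not pass, where 3.90% of all genes were called higher and 2.99% lower. Both that rose encode chaperone chains; of the antigen-binding chain genes only 1, H2-Ab1, was tested. H2-Ob, the beta chain of H2-O, was at 5.56 and 2.68 FPKM in Gata3(g/g) libraries, against 1.89 and 1.49 FPKM in WT libraries, from 102 to 734 fragments. The groups did not overlap, and Gata3(g/g) replicate 1 was the highest by far. Its log2 fold change was 1.23 ± 0.228 (SE, adjusted p = 0.00264 by blocked edgeR), with 1.57 in run 1 and 0.83 in run 2, and 1.29 without the block (adjusted p = 1.0). In the authors' deposited table its q-value was 0.00349. H2-Oa, the alpha chain of the same heterodimer, was at 6.47 and 6.68 FPKM in Gata3(g/g) libraries, against 8.93 and 8.86 FPKM in WT libraries. Both Gata3(g/g) libraries lay below both WT libraries, and the log2 fold change was −0.43 ± 0.208 (SE, adjusted p = 0.246 by blocked edgeR). The log2 ratio of H2-Ob over H2-Oa in FPKM was −0.22 and −1.32 in Gata3(g/g) libraries, against −2.24 and −2.57 in WT libraries.

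H2-DMa, the alpha chain of the peptide exchange factor H2-DM, was at 29.4 and 17.3 FPKM in Gata3(g/g) libraries, against 20.1 and 10.8 FPKM in WT libraries. It was higher in Gata3(g/g) within each run, while Gata3(g/g) replicate 2 lay below WT replicate 1. Its log2 fold change was 0.61 ± 0.164 (SE, adjusted p = 0.0327 by blocked edgeR), with 0.57 in run 1 and 0.65 in run 2. It was 0.60 in the fit with no block (adjusted p = 1.0 by edgeR), and neither the DESeq2 fit with the block nor blocked edgeR at a mean of at least 5 FPKM called it (adjusted p = 0.192 and 0.0519). In the authors' deposited table its q-value was 0.0939. The beta chain genes stayed far lower: H2-DMb1 was at 1.12 and 0.765 FPKM in Gata3(g/g) libraries, against 1.17 and 0.656 FPKM in WT libraries, and H2-DMb2 was at 0.424 and 0.604 FPKM in Gata3(g/g) libraries, against 0.406 and 0.534 FPKM in WT libraries. The neighbouring gene Brd2, which overlaps H2-DMa in GENCODE but not the authors' entry at chr17:34135671-34138535, was at 31.6 and 33.6 FPKM in Gata3(g/g) libraries, against 33.6 and 31.5 FPKM in WT libraries.

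The antigen-binding chain and invariant chain genes did not pass or lay under the filter. H2-Ab1 was at 5.53 and 5.45 FPKM in Gata3(g/g) libraries, against 6.43 and 4.79 FPKM in WT libraries, a log2 fold change of −0.02 ± 0.228 (SE). Cd74 was at 1.08 and 1.25 FPKM in Gata3(g/g) libraries, against 1.3 and 0.411 FPKM in WT libraries, so that its difference of −0.24 in run 1 and 1.31 in run 2 followed the low WT replicate 2, with 14 fragments. H2-Aa was at 0.543 and 0.349 FPKM in Gata3(g/g) libraries, against 0.837 and 0.122 FPKM in WT libraries. H2-Eb1 was at 0.353 and 0.322 FPKM in Gata3(g/g) libraries, against 0.470 and 0.390 FPKM in WT libraries. H2-Ea-ps, which in C57BL/6 mice is a pseudogene so that no complete I-E molecule is made, had at most 1 fragment in a library.

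Markers of cells that carry class II were measured beside these values. Of 10 dendritic cell markers all were in the table, 7 stayed under 1 FPKM in every library, and the list summed to 97.9 and 91.4 FPKM in Gata3(g/g) libraries, against 108 and 120.4 FPKM in WT libraries, nearly all from Bst2 and Ccr9, which thymocytes also express. Cd209a, Clec9a, Siglech and Xcr1 were at or below 0.0921 FPKM in every library. Itgax was at 0.547 and 0.447 FPKM in Gata3(g/g) libraries, against 0.151 and 0.142 FPKM in WT libraries. The 10 measured macrophage and monocyte markers summed to 24.1 and 18.4 FPKM in Gata3(g/g) libraries, against 14.8 and 11.5 FPKM in WT libraries, 8 of them staying under 1 FPKM. Lyz2, which encodes a lysozyme, made most of that sum, at 18.7 and 13.6 FPKM in Gata3(g/g) libraries, against 9.93 and 4.20 FPKM in WT libraries, and rose (1.27 ± 0.198, SE, adjusted p = 0.00061 by blocked edgeR). The 9 markers without Lyz2, a sum chosen after the data were seen, came to 5.48 and 4.89 FPKM in Gata3(g/g) libraries, against 4.91 and 7.32 FPKM in WT libraries, so that they were lower in Gata3(g/g) in run 2. Itgax, which lay under the filter, passed in blocked edgeR with no filter (adjusted p = 0.00267). Of 8 measured B cell markers, summing to 38.3 and 30.7 FPKM in Gata3(g/g) libraries and to 30.5 and 29.9 FPKM in WT libraries, Cd79b made nearly all of the sum, and Ms4a1 and Pax5 did not exceed 0.0774 FPKM. Blnk alone of the 8 showed no overlap, at 1.08 and 0.793 FPKM in Gata3(g/g) libraries, against 0.392 and 0.436 FPKM in WT libraries. It lay under the filter and did not pass in blocked edgeR with no filter (adjusted p = 0.0815). The 8 thymic epithelial markers summed to 12.5 and 16.5 FPKM in Gata3(g/g) libraries, against 17.2 and 15.8 FPKM in WT libraries. Of the macrophage markers, Lyz2 was thus higher beside H2-Ob and H2-DMa, and its part in their difference was not tested.

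**Figure D3:**
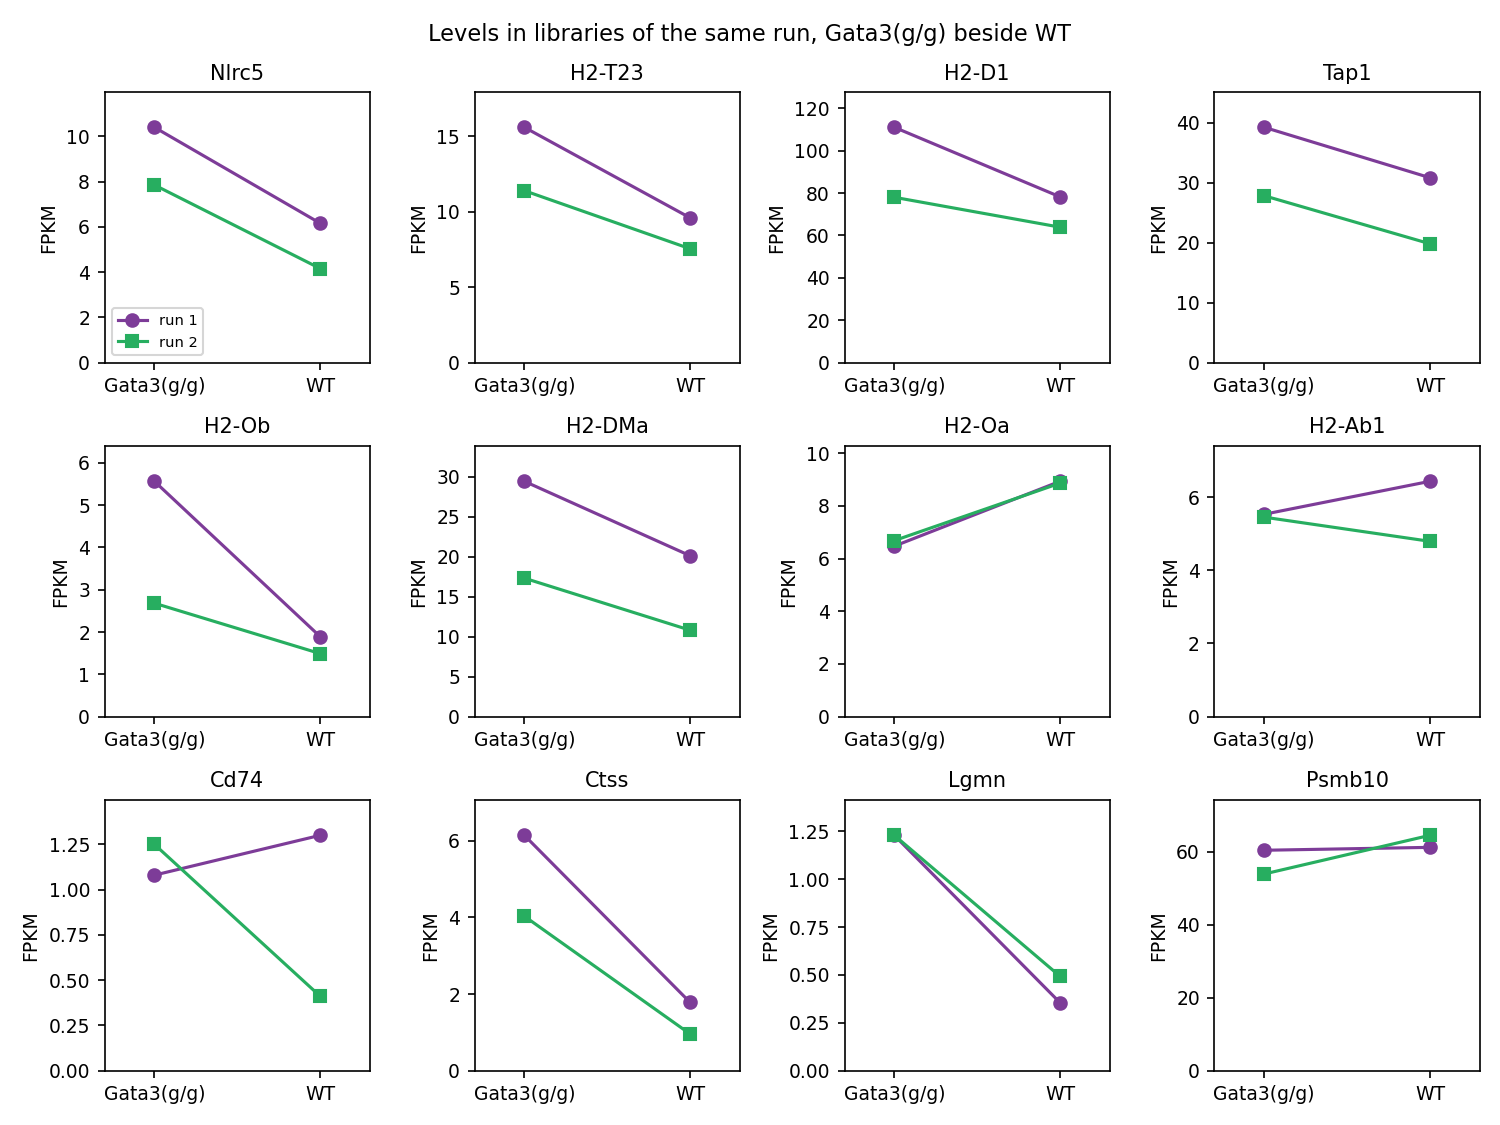
Levels in FPKM, from 0 on a linear axis, of 12 genes in the Gata3(g/g) library (left) and the WT library (right) of each run, joined by a line per run. Lines for Nlrc5, H2-T23, H2-D1, Tap1, H2-Ob, H2-DMa and Ctss slope down towards WT in both runs, H2-Oa slopes up in both, and those of H2-Ab1 and Cd74 run in opposite directions.

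The other 25 genes lay under the filter, at a mean of at most 0.927 FPKM for the highest of them, H2-DMb1, where the lowest tested gene, Cd74, had a mean of 1.01 FPKM. More than 10 fragments in at least 1 library were seen for 13 of them: Ciita, H2-Aa, H2-Bl, H2-DMb1, H2-DMb2, H2-Eb1, H2-Eb2, H2-M10.5, H2-Q1, H2-Q8, H2-Q9, H2-T3 and H2-T9. The remaining 12, most of them H2-M genes, reached 0.254 FPKM at most, and H2-M10.4 had no fragment in any library, which allows at most 0.112 to 0.209 CPM (3 fragments of each total, counting error only). In blocked edgeR with no filter, 0 of the 24 genes with a fragment passed, against 4.63% of 21355 genes. H2-M10.5 had 3 and 2 fragments in Gata3(g/g) libraries, against 0 and 16 in WT libraries, and H2-Eb2 had 2 and 12 fragments in Gata3(g/g) libraries, against 2 and 1 in WT libraries, so that 1 library set each difference.

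Class I and class II were set against each other by their summed levels. The 30 class I heavy chain genes summed to 543 and 431 FPKM in Gata3(g/g) libraries, against 401 and 366 FPKM in WT libraries. Both Gata3(g/g) libraries lay above both WT libraries, and the mean difference was 0.34 on the log2 scale, with 0.44 in run 1 and 0.24 in run 2 (exact permutation test, two-sided p = 0.333, the smallest that 2 against 2 libraries allow). Without Gata3(g/g) replicate 1 it was 0.17. The class II genes without H2-Ea-ps, 10 in all, summed to 50.5 and 35.5 FPKM in Gata3(g/g) libraries, against 41.6 and 28.0 FPKM in WT libraries, a mean difference of 0.31 with 0.28 in run 1 and 0.34 in run 2 (exact permutation test, p = 0.667). That difference depended on single libraries: it was 0.06 without Gata3(g/g) replicate 1, 0.56 without Gata3(g/g) replicate 2, 0.59 without WT replicate 1 and 0.03 without WT replicate 2. H2-DMa, H2-Oa and H2-Ob made between 74.4% and 82.0% of that sum. Without these 3 genes the rest came to 9.06 and 8.84 FPKM in Gata3(g/g) libraries, against 10.6 and 6.91 FPKM in WT libraries. That remainder was lower in Gata3(g/g) in run 1 and higher in run 2. The class I sum was 10.8 and 12.1 times the class II sum in Gata3(g/g) libraries, against 9.64 and 13.1 times in WT libraries. The log2 ratio of class II to class I differed by −0.03 between the genotypes (exact permutation test, p = 1.0), with −0.16 in run 1 and 0.10 in run 2, so its sign was not the same in the 2 runs. For B2m over the class I sum, the ratio was 3.42 and 4.46 in Gata3(g/g) libraries, against 3.66 and 3.69 in WT libraries.

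Libraries of the same genotype differed between the runs in many of these genes. By edgeR with genotype as a covariate, 13 of the 25 passed for run 2 over run 1, 12 of them lower and 1 higher in run 2, where 17.3% of all genes were called lower and 17.5% higher. Without the genotype covariate 4 of the 25 passed, against 7.35% of all genes, and limma called 8, against 14.2%. The median log2 fold change was −0.39, against −0.01 over all genes. Tap2 (−1.13 ± 0.130, SE, adjusted p = 1.02e-05 by edgeR), H2-Q4 (−1.09 ± 0.149, SE), H2-DMa (−0.84 ± 0.165, SE), Psmb9 (−0.62 ± 0.138, SE), Tap1 (−0.54 ± 0.122, SE) and Nlrc5 (−0.46 ± 0.130, SE) were lower in run 2, and H2-Q2 was the farthest from 0 (−2.25 ± 0.358, SE). H2-T24 was the 1 gene called higher (1.43 ± 0.274, SE). For 14 of the 25 genes the run difference was larger in size than the genotype difference. The share over all genes was not computed, so this count is not shown to be particular to the list. The run holds 1 library of each genotype, so it does not follow the genotype, and what differed between the runs besides the sequencing is not given in the labels. The erythroid transcripts that were present in run 2 moved with it, and their part was not tested.

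**Figure D4:**
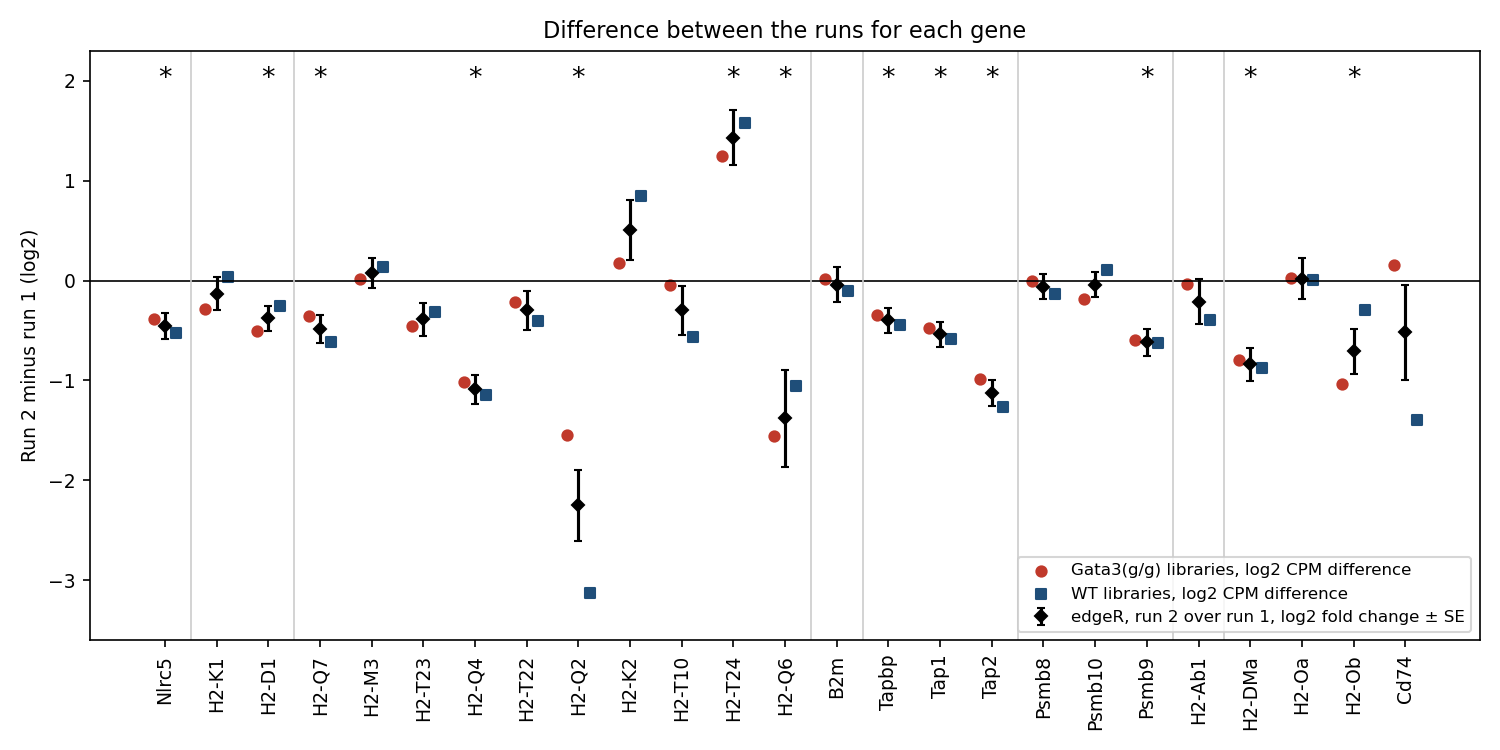
Difference between run 2 and run 1 on the log2 scale for the 25 tested genes, in Gata3(g/g) libraries (circles), in WT libraries (squares) and in the edgeR model with genotype as a covariate (diamonds with SE); asterisks mark an adjusted p under 0.05. Most marked genes lie below 0, with H2-T24 above it, and the circles and squares of a gene lie on the same side of 0 for each of the 13 marked genes.

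Of 45 listed genes outside the rule, 36 were tested. With the block 2 of them rose, 34 did not pass and 0 fell, against 3.90% higher and 2.99% lower over all genes, with a median log2 fold change of 0.08. Without the block 0 passed by edgeR, 2 had an unadjusted p under 0.05, and DESeq2 without the block called 1, Ctss, against 0.861% of all genes. Ctss, the cathepsin that trims the invariant chain, was at 6.14 and 4.03 FPKM in Gata3(g/g) libraries, against 1.78 and 0.956 FPKM in WT libraries, with no overlap (1.91 ± 0.279, SE, adjusted p = 0.000301 by blocked edgeR). Jak2, a kinase of the interferon gamma receptor, was at 7.09 and 8.02 FPKM in Gata3(g/g) libraries, against 5.63 and 4.60 FPKM in WT libraries (0.57 ± 0.147, SE, adjusted p = 0.0264 by blocked edgeR). The interferon-responsive regulator Irf1 had a log2 fold change of −0.01 ± 0.135 (SE), from opposite differences of −0.23 in run 1 and 0.22 in run 2. Of the class II regulators Rfx5, Rfxank, Rfxap, Crebbp, Nfya, Nfyb and Nfyc none passed. Among the abundant proteasome and chaperone genes, Psme1 was at 317 and 328 FPKM in Gata3(g/g) libraries, against 331 and 364 FPKM in WT libraries, and Calr at 137 and 140.2 FPKM in Gata3(g/g) libraries, against 145 and 109.7 FPKM in WT libraries. Lgmn, an endosomal protease gene under the filter, was at 1.23 FPKM in both Gata3(g/g) libraries, against 0.355 and 0.493 FPKM in WT libraries. It passed in blocked edgeR with no filter (1.56 ± 0.4, SE, adjusted p = 0.004), where 2.57% of all genes were called higher.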

How the data were processed

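RNA from sorted DN3 cells of 4 libraries was sequenced. The authors aligned reads with TopHat2 2.0.8b and Bowtie2 2.1.0 and quantified genes with Cuffdiff 2.1.1 on mm10, per the submitters' processing notes; for annotation, read length and strand the sources used here give nothing. The deposited tables hold, per gene and library, estimated counts of fragments and FPKM, with scaled fragments (a signal, not used), and the authors' comparison with its log2 fold change, test score (not used), p-value and q-value. Between 97.659% and 98.862% of the estimated counts were whole within 0.01; all were rounded. The 3 genes marked too deep were dropped; 5 values with a failed status stayed in.

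Genes with a mean of at least 1 FPKM were tested by edgeR 4.0.16 (R 4.3.3; quasi-likelihood, TMM scaling, Benjamini-Hochberg adjustment over all tested genes), on genotype alone and with the replicate number as a block. Replicate numbers follow the sequencing runs in the labels' sequence identifiers, and the run differences of the genotypes correlated across 10224 genes (Pearson's r = 0.754; genes are not independent replicates), so both fits are given. Alternatives were DESeq2 1.42.0, limma 3.58.1 on log2(FPKM + 1) and log2(FPKM + 0.1), other scalings and filters, and leaving out each library. Only the edgeR genotype fits were tested on simulated data, with differences larger than most of those given here. Fragment totals ranged from 14331705 to 26901913; floors of 3 fragments cover counting error only. All chosen genes with a mean of at least 1 FPKM, and others with over 10 fragments in a library, are named; listed pathway genes outside the rule are named where they passed or were abundant. The genes and lists were chosen with earlier results of these data known.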

Additional observations from a re-analysis of the deposited data

How the results depend on the processing

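With 2 libraries per genotype, the block leaves 1 residual degree of freedom, and the calls depended on it; the cause was not tested. Among the 25 genes, 0 calls without the block became 4 with the replicate block, 4 with the block and DESeq2's size factors, 6 with the block and total fragments only, 4 with the block and no filter, 2 with the block and a mean of at least 5 FPKM (17 genes) and 2 with the block in DESeq2; limma with the block called 0. Among the other pathway genes, 0 calls became 1 in DESeq2, and with the block 2, 2 with DESeq2's size factors, 2 with total fragments only, 3 with no filter, 1 at 5 FPKM, 1 in DESeq2 and 1 in limma with a pseudocount of 0.1. The 3 with no filter were counted among the 36 tested genes. Of them, Ctss and Jak2 were higher in Gata3(g/g) and Irf8 was lower. Lgmn, a listed gene outside the 36, was also called higher with the block and no filter (adjusted p = 0.004 by blocked edgeR). Run calls numbered 13, but 4 without the genotype covariate and 8 in limma. The class II to class I log2 ratio (−0.03) was 0.04 from CPM, 0.01 as a mean of logs, 0.10 in run 2, and −0.25 to 0.19 leaving out a library. Leaving out a library gave 0.17 to 0.50 for the class I sum and 0.03 to 0.59 for the class II sum. Over up to 19 alternatives 15 of 25 genes kept their direction and 10 did not. H2-Ab1 reversed with total fragments only (0.02, with the block 0.03). H2-T24 was 0.01 in limma with a pseudocount of 0.1 and with the block, also with DESeq2's size factors, no filter, DESeq2 or limma, and 0.06 with the block and total fragments only. For run 2 over run 1, B2m and Psmb10 were 0.01 at 5 FPKM, and H2-M3 was −0.08 and H2-Oa −0.14 with no filter. Leaving out a library, log2 fold changes ranged for Cd74 from −0.17 to 1.3, H2-Ab1 −0.21 to 0.17, H2-K2 −0.30 to 0.57, H2-Q2 −0.92 to 2.45, H2-Q4 −0.17 to 1.12, H2-Q6 −1.49 to 0.26, H2-T10 −0.37 to 0.20, H2-T24 −0.82 to 0.95, Psmb9 −0.01 to 0.66, Tap2 −0.30 to 1.04, Ifngr1 −0.46 to 0.10, Calr −0.05 to 0.31, Psme3 −0.62 to 0.22 and Psmb7 −0.23 to 0.42. The genes called with the block stayed above 0, from 0.59 to 1.11 for Nlrc5, 0.41 to 0.87 for H2-T23, 0.67 to 1.72 for H2-Ob and 0.15 to 1.1 for H2-DMa. Depth limits the genes under the filter.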
